A study of Mus musculus with 18 samples.

Results

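A set of 10 regulators of the primitive streak and of the mesoderm that leaves it was followed through all 18 libraries: *T*, *Mixl1*, *Eomes*, *Gsc* and *Evx1* of the streak, *Mesp1* and *Tbx6* of nascent and paraxial mesoderm, and *Hand2*, *Foxf1* and *Isl1* of lateral plate mesoderm. They were chosen by name, with earlier results of these data known, so their counts beside those of all genes are a description only. All 10 were found among the 24346 gene symbols of the Tsix-stop files and in the E8 files. Both lines are female mouse embryonic stem (ES) cells from a cross with *Mus castaneus* (cast). Tsix-stop has a maternal (strain-129) and a paternal (cast) genome and a transcriptional stop in *Tsix* on its maternal X chromosome, which the wt, KO and CRISPR control cells all carry. E8 has a BL6 and a cast genome. Tsix-stop gave 2 wt and 2 KO libraries and 1 CRISPR control library as undifferentiated ES cells (D0), and as many after 15 days of differentiation (D15), whereas E8 gave 2 wt and 2 KO libraries on D7 and on D15. The E8 days are those of the labels; the study's methods name earlier days for its E8 libraries, so the E8 days are uncertain. The Tsix-stop KO carries a homozygous deletion inside *Kdm6a* made by CRISPR and exists as a pair of clones, but the labels do not say which library is which clone. The E8 libraries come from a single wt control and a single KO clone with a deletion at the *Kdm6a* promoter, so they cannot tell the deletion from other features of that clone. ES cells were kept on inactivated mouse embryonic fibroblasts with LIF, and differentiation was nondirected, as embryoid bodies (EBs) without LIF.

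The primitive streak is the strip of the early embryo where epiblast cells turn into mesoderm and endoderm under Wnt, Nodal and BMP signals. *T* (Brachyury), *Eomes* and *Tbx6* encode T-box factors, *Mixl1*, *Gsc*, *Evx1* and *Isl1* homeodomain proteins, *Mesp1* and *Hand2* bHLH factors, and *Foxf1* a forkhead factor. Many genes of this kind carry H3K27me3 in ES cells, the Polycomb mark that KDM6A (UTX), a demethylase encoded on the X chromosome, can remove. The comparison of KO with wt asks how these genes are expressed when *Kdm6a* is disrupted, before and during differentiation.

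Counts per Tsix-stop library summed to 51091148 to 68796172, so that the 3 counts taken as the lower limit of detection stood for 0.0464 to 0.0552 CPM (counts scaled to library size). At D0 the wt libraries had *Kdm6a* itself at 139 and 209 CPM and the KO libraries at 130 and 48.4 CPM, and at D15 wt had 138 and 109 CPM and KO 93.3 and 28 CPM. A count over the whole gene includes exons outside the deletion, so these values do not check the labels, and KO replicate 1 stayed near wt on both days. The study describes its CRISPR control as a clone that received the CRISPR/Cas9 treatment and had no *Kdm6a* deletion. The CRISPR control libraries (128 and 93.3 CPM of *Kdm6a*) are controls by their labels but were deposited under names that call them KO. They therefore entered no main test. In E8, *Kdm6a* was at 46.7 to 47.8 TPM, a level scaled for gene length and library, in wt and 0.00578 to 0.0319 TPM in KO. The labels were checked against pluripotency markers: the ES cell gene *Pou5f1* was at 2280 and 2330 TPM in Tsix-stop wt at D0 and still at 1120 and 1360 TPM at D15. In E8 wt it was at 1730 and 1630 TPM at D7 and at 1860 and 2040 TPM at D15, and 10 pluripotency genes summed to 13600 TPM in each library and then to 17200 and 18000 TPM, a higher sum at the later labelled day. In such bulk samples, fewer cells of a type and less RNA per cell cannot be told apart.

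The members lie on 8 chromosomes of the GRCm38 genome. The annotated spans of the 6 that the results turn on most are *T* (chr17:8434423-8442496, plus strand), *Eomes* (chr9:118478212-118486132, plus), *Evx1* (chr6:52313498-52318378, plus), *Hand2* (chr8:57320983-57324633, plus), *Foxf1* (chr8:121084386-121088144, plus) and *Isl1* (chr13:116298281-116309689, minus). The library kit does not mark strand, and antisense genes overlap exons of *Eomes* (*Gm33460*), *Evx1* (*Evx1os*), *Hand2* (*Hand2os1*) and *Foxf1* (the miRNA gene *Gm27530*), so reads of either strand cannot be told apart there. RefSeq promoters of build GRCm38.p6 were matched for 8 of the 10 members, and the 250 bases before the start are printed for the streak genes *T*, *Eomes* and *Evx1*, which departed from each other in the KO, and for *Hand2* and *Isl1*, which moved together. Capitals mark the core TCAAAG that TCF/LEF factors read and the core TCACACC of T-box factors. They also mark TATAAA near starts of transcription, the core CCAAT that the factor NF-Y binds, and AGATAA, which GATA factors bind, each on either strand.
T, chr17:8434173-8434422, plus strand: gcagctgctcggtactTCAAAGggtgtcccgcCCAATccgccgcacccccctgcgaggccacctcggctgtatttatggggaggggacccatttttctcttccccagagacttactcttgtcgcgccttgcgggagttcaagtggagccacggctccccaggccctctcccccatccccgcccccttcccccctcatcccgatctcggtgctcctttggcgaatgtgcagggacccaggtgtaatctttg
Eomes, chr9:118477939-118478188, plus strand: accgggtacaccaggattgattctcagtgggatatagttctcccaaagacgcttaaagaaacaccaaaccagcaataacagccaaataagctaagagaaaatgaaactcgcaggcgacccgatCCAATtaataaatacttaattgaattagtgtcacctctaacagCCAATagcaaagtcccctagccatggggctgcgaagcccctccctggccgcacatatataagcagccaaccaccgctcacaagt
Evx1, chr6:52313248-52313497, plus strand: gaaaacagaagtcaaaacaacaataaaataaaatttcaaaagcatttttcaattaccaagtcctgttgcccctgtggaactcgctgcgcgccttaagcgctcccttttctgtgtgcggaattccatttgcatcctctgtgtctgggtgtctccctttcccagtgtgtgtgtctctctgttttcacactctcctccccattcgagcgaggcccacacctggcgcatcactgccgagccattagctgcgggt
Hand2, chr8:57320733-57320982, plus strand: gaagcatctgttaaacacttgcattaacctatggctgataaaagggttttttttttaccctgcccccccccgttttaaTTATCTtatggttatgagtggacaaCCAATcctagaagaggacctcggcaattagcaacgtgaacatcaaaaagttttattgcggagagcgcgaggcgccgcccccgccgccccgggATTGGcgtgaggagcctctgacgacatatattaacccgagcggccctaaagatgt
Isl1, chr13:116309689-116309938, minus strand: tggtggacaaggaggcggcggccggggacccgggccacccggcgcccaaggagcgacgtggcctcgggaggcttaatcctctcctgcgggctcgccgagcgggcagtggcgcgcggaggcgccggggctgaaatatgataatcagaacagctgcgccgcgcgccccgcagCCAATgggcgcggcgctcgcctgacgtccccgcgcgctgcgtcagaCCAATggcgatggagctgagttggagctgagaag
CCAAT occurred in 4 of the 8 member promoters (*T*, *Eomes*, *Hand2*, *Isl1*) and in 33.8% of the 32817 promoters of that length. TCAAAG occurred in 2 (*T* and *Mesp1*) against 13.8%, TATAAA in 2 (*Gsc* and *Tbx6*) against 12.4%, AGATAA in 1 (*Hand2*) against 9.99%, and TCACACC in none against 3.33%. *Isl1* had 33 CpG dinucleotides in this window, *Gsc* 22, *Hand2* 15, *T* 14, *Evx1* 10, *Eomes* 8, *Tbx6* 6 and *Mesp1* 2, where the median promoter had 6.

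In undifferentiated Tsix-stop cells the members ranged from below the limit of detection to 21.5 CPM (*T* in KO replicate 2). Of the lateral plate genes, *Hand2* had 18 to 51 counts per library and *Isl1* 15 to 37, above the limit of 3 counts, whereas *Foxf1* was under it in both wt libraries. *T* was at 8.06 and 7.18 CPM in the wt libraries, 11.6 and 21.5 CPM in the KO libraries and 6.92 CPM in the CRISPR control. *Gsc*, an organizer gene, was at 6.71 and 5.18 CPM in wt, 11.4 and 4.83 CPM in KO and 7.84 CPM in the control. *Eomes* was at 4.48 and 4.24 CPM in wt, 4.06 and 4.5 CPM in KO and 6.07 CPM in the control. The KO libraries lay above wt for *T* and on both sides of wt for *Gsc* and *Eomes*, and none of these differences passed the test (*T*, log2 fold change 1.11, adjusted p = 0.22).

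*Evx1*, a homeobox gene of the posterior streak, was lower in KO before differentiation. It was at 1.33 and 2.35 CPM in wt and at 2.72 CPM in the control, but at 0.133 and 0.234 CPM in KO. Both KO libraries lay below all 3 others, and the log2 fold change was -3.31 ± 0.57 (SE, n = 2 per group, adjusted p = 0.009, edgeR). With the control added to wt it was -3.52 and no longer called (adjusted p = 0.17). *Foxf1* went the other way from almost nothing, with 1 count in the wt libraries together and 21 counts in the KO libraries (0.0155 and 0 CPM in wt, 0.116 and 0.218 CPM in KO). The ratio was 20.6 with an exact interval of 3.31 to 852 that covers counting error only, and the test called it higher (adjusted p = 0.021), although the control library (0.516 CPM) lay above both KO libraries. *Mixl1*, the streak gene on chromosome 1, was too low for the filter. It was at 1.27 and 0.889 CPM in wt, 3.37 and 2.18 CPM in KO and 2.8 CPM in the control, and in a fit without the filter it was higher in KO (log2 fold change 1.38 ± 0.35, adjusted p = 0.02). Of the 7 members that passed the filter at D0, 1 was lower, where 5.01% of all genes tested were lower, and 1 was higher, where 3.11% were.

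By D15 the wt EBs expressed lateral plate genes, and the KO EBs expressed them far less. *Hand2*, needed for heart and limb mesenchyme, was at 35.8 and 39.1 CPM in wt, 1.96 and 0.975 CPM in KO and 0.545 CPM in the CRISPR control. The KO level was 25.6-fold lower than wt (log2 fold change -4.68 ± 0.38, adjusted p = 0.0002). *Foxf1*, of the splanchnic lateral plate, was at 2.81 and 3 CPM in wt, 0.561 and 0.57 CPM in KO and 0.817 CPM in the control, a log2 fold change of -2.37 ± 0.39 for KO against wt (adjusted p = 0.0029). *Isl1*, of second heart field progenitors, was at 4.73 and 4.34 CPM in wt, 0.323 and 1.21 CPM in KO and 0.664 CPM in the control, with a log2 fold change of -2.58 ± 0.52 (adjusted p = 0.0069). With the control added to wt, 4 members were called at D15 (*T*, *Gsc*, *Evx1*, *Hand2*), and *Foxf1* (-1.96, adjusted p = 0.29) and *Isl1* (-2.08, adjusted p = 0.15) lost their calls. The added control library lay below both KO libraries for *Hand2* and above all other libraries for *T* (55.7 CPM). For *Hand2*, *Foxf1* and *Isl1* wt stood alone: the 2 wt libraries were above the KO and the control libraries, with no overlap, and the control lay nearer to KO than to wt.

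Among the streak genes *Evx1* fell furthest behind. At D15 it was at 8.17 and 7.63 CPM in wt, 0.255 and 0.791 CPM in KO and 1.98 CPM in the control, a 15.3-fold lower level in KO (log2 fold change -3.94 ± 0.52, adjusted p = 0.0012). *Gsc* was at 2.94 and 3.85 CPM in wt, 0.918 and 1.03 CPM in KO and 2.26 CPM in the control, with a log2 fold change of -1.81 ± 0.42 (adjusted p = 0.012). Both genes kept the order wt, control, KO without overlap between wt and KO.

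*T* was uneven within KO and between wt and control. It was at 7.7 and 8.19 CPM in the wt EBs, 0.884 and 4.05 CPM in the KO EBs and 55.7 CPM in the control EBs. The KO libraries were below wt (log2 fold change -1.71 ± 0.57, adjusted p = 0.047), KO replicate 1 furthest, and the control was well above every other library. The call rests on KO replicate 1: without it the log2 fold change was -0.97 (adjusted p = 0.092), short of the 2-fold limit. It was also lost when either wt library of D15 was left out (adjusted p = 0.14 without replicate 1 and 0.16 without replicate 2).

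*Eomes*, the T-box gene required for the exit of mesoderm and for definitive endoderm, took the other direction. It was at 31 and 30.6 CPM in wt, 51.1 and 47.8 CPM in KO and 50.7 CPM in the control. KO and control libraries lay together above wt, and the log2 fold change of 0.67 ± 0.13 (adjusted p = 0.0059) stayed below the 2-fold limit for a call. The nascent mesoderm genes were too low for the filter: *Mesp1* was at 0.328 and 0.308 CPM in wt, 0.068 and 0.294 CPM in KO and 1.81 CPM in the control, and *Tbx6* at 2.09 and 2.22 CPM in wt, 0.867 and 1.43 CPM in KO and 1.53 CPM in the control. *Mixl1* was at 0.922 and 0.959 CPM in wt, 0.51 and 0.772 CPM in KO and 1.82 CPM in the control. Without the filter the log2 fold changes of these genes were -0.77, -0.85 and -0.50, and none passed the test.

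Of the 7 members tested at D15, 6 were lower in KO, where 11.1% of all genes tested were lower, and none was higher, where 3.83% were. *Evx1*, *Hand2*, *Foxf1* and *Isl1* passed the filter only through wt at D15, so a lower KO level in them was in part set by the filter, and without any filter 6 of the 10 members were lower against 10.6% of 20483 genes. In 9 of the 10 members (6 of the 7 tested) no KO library reached a wt library at D15, an order that 37.1% of the genes tested also showed. The single control library lay below both wt libraries for 6 members (*Gsc*, *Evx1*, *Tbx6*, *Hand2*, *Foxf1*, *Isl1*) and above them for 4 (*T*, *Mixl1*, *Eomes*, *Mesp1*), where 40.2% of all genes detected lay below both and 35.7% above. With the control library of each day put in place of wt, 4 members passed the filter (*T*, *Mixl1*, *Eomes*, *Gsc*) and edgeR called 0 of them at D15, 2 being at an unadjusted p under 0.05, in a fit where the lone library is assumed to vary as the KO does.

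**Figure D1:**
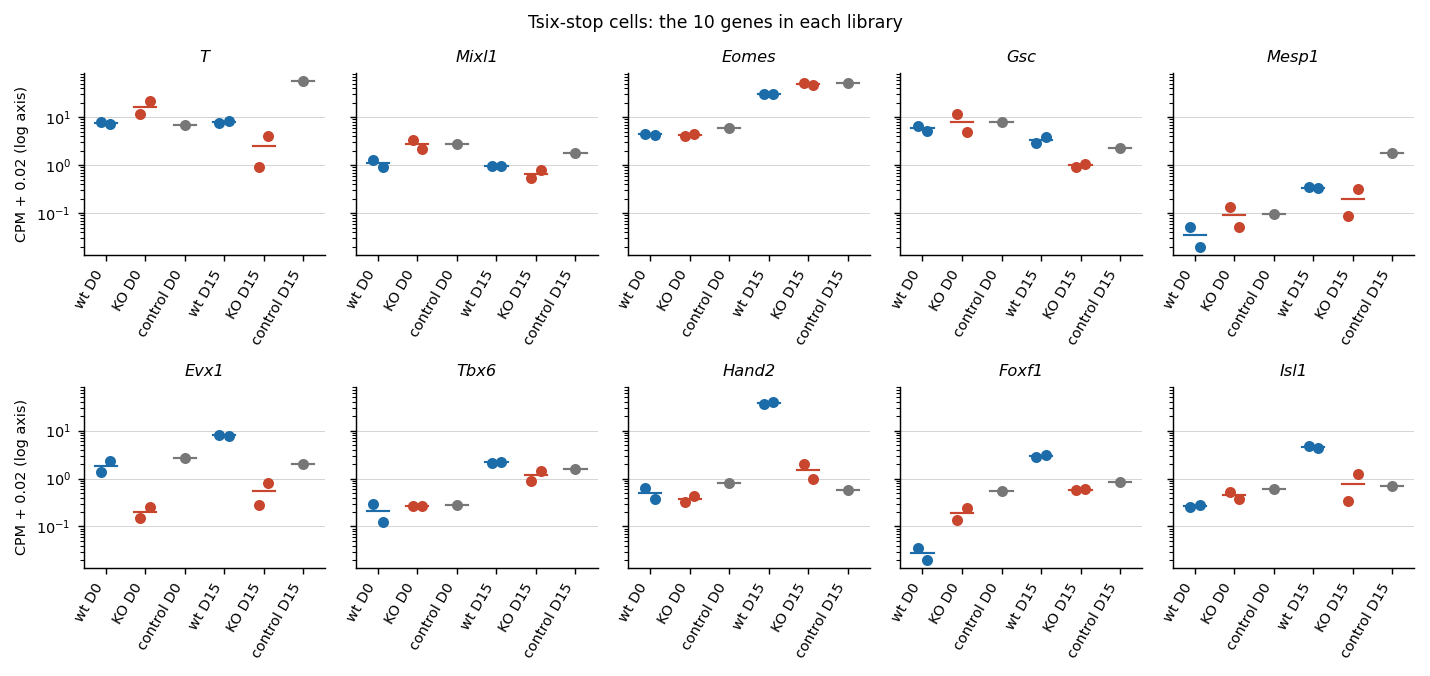
Level of each member in each Tsix-stop library (log axis, CPM), with wt in blue, KO in red, the CRISPR control in grey and the mean as a line, at D0 and D15. At D15 the 2 wt libraries stand above KO and control for *Evx1*, *Hand2*, *Foxf1* and *Isl1*, *Eomes* is higher in KO and control than in wt, and *T* reaches 55.7 CPM in the control.

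From D0 to D15 the wt cells gained lateral plate expression while *T* stayed level. *Hand2* rose 77.7-fold (log2 fold change 6.28 ± 0.42, adjusted p = 6.1e-06), *Isl1* by 4.22 (adjusted p = 0.00024), *Eomes* by 2.84 (adjusted p = 2.6e-06) and *Evx1* by 2.13 on the log2 scale (adjusted p = 0.0034). *Foxf1* went from 1 to 346 counts (ratio 354, exact interval 63.1 to 14000, adjusted p = 1.4e-05). The log2 fold change of *T* was 0.08 (adjusted p = 0.9) and that of *Gsc* -0.79 (adjusted p = 0.1), neither called. Thus 5 of 7 members were higher at D15 in wt, where 24.2% of all genes tested were. *Evx1*, *Hand2*, *Foxf1* and *Isl1* passed the filter only through wt at D15, so their rise was in part set by it, and without the filter 7 of 10 were higher, where 23.6% of genes were. *Mesp1*, below the filter, went from 2 counts to 38 (ratio 19.4, exact interval 5.02 to 166).

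In KO the same 15 days ended with less *T* and *Gsc* and more *Eomes*. *T* decreased by 2.74 ± 0.58 (adjusted p = 0.0039) and *Gsc* decreased by 3.04 ± 0.43 on the log2 scale (adjusted p = 0.00046), and *Eomes* rose by 3.54 ± 0.15 (adjusted p = 2.8e-06). *Hand2* rose by 2.07 (adjusted p = 0.0026), *Foxf1* by 1.75 (adjusted p = 0.011) and *Evx1* by 1.50 (adjusted p = 0.06), and *Isl1* had a log2 fold change of 0.82 (adjusted p = 0.23). With the control added to wt, *Hand2* (adjusted p = 0.25), *Foxf1* (0.33) and *Evx1* (0.16) were not called. That is 4 of 7 members higher, where 20.0% of all genes tested were, and 2 lower, where 7.66% were. The test of the difference between these time courses called 5 of 7 lower in KO, where 10.5% of genes were, and 6 of 10 without the filter, where 8.30% were. With the CRISPR control added to wt none of the 5 was called (adjusted p = 0.1 for *T*, 0.11 for *Gsc*, 0.29 for *Hand2* and *Isl1* and 0.56 for *Foxf1*, edgeR), 2 members being at an unadjusted p under 0.05. In the main fit, without the control, the 5 called were *T* (-2.83 ± 0.79, adjusted p = 0.034), *Gsc* (-2.25 ± 0.57, adjusted p = 0.024), *Hand2* (-4.21 ± 0.57, adjusted p = 0.0026), *Isl1* (-3.40 ± 0.80, adjusted p = 0.018) and *Foxf1*. The *Foxf1* estimate rests on the 1 wt count at D0 and is therefore not quoted as a size. *Eomes* (0.70, adjusted p = 0.031) was short of 2-fold, and *Evx1* (-0.63, adjusted p = 0.59) had not shifted detectably between days, its deficit being there from D0. These time courses share the wt and KO libraries of each day with the comparisons above.

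In E8 at D15 every member that could be tested was called higher in KO, whereas at D7 only *T* of the streak genes and *Foxf1* and *Isl1* of the lateral plate were. *Hand2* was also above wt in both KO libraries of D7. It was short of 2-fold on the log2(TPM + 1) scale (0.81, adjusted p = 0.00035, limma). *T* was at 6.3 and 6.4 TPM in wt and 46.9 and 46.9 TPM in KO at D7, and at 2.23 and 3 TPM in wt and 66.2 and 67.3 TPM in KO at D15. The KO libraries were above wt on both days, with log2 fold changes on the log2(TPM + 1) scale of 2.70 ± 0.09 at D7 (adjusted p = 1.2e-07) and 4.24 ± 0.09 at D15 (adjusted p = 3e-08, limma). *Mixl1* differed by less than 2-fold at D7 (4.26 and 4.03 TPM in wt, 3.01 and 3.28 TPM in KO), and at D15 it was at 0.62 and 0.383 TPM in wt and 20.7 and 21.6 TPM in KO (log2 fold change 3.89 ± 0.08, adjusted p = 3.8e-08). *Eomes* was at 22.4 to 23.4 TPM in all 4 libraries of D7, then at 9.65 and 10 TPM in wt and 44 and 46.5 TPM in KO at D15 (log2 fold change 2.09 ± 0.04, adjusted p = 2.5e-08). *Evx1* followed the same course, from 2.7 to 2.98 TPM in all 4 libraries of D7 to 0.357 and 0.53 TPM in wt and 10.6 and 11 TPM in KO at D15 (log2 fold change 3.03 ± 0.08, adjusted p = 8.2e-08). For *Eomes* and *Evx1* the groups overlapped at D7 and were apart at D15, lower than at D7 in wt and higher in KO.

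*Mesp1*, a gene switched on as mesoderm leaves the streak, changed sides between the days. It was at 5.53 and 5.03 TPM in wt and 1.24 and 0.928 TPM in KO at D7 (log2 fold change -1.59 ± 0.10, adjusted p = 3.3e-06), and at 0.452 and 0.501 TPM in wt and 7.24 and 8.41 TPM in KO at D15 (log2 fold change 2.58 ± 0.10, adjusted p = 5.4e-07). The lateral plate genes were at 0.486 TPM or less in every wt library of either day. In KO, *Hand2* was at 1.21 and 1.51 TPM at D7 and 8.03 and 8.68 TPM at D15, *Foxf1* at 1.81 and 2.08 TPM and then 5.54 and 5.94 TPM, and *Isl1* at 1.99 and 1.83 TPM and then 4.71 and 5.01 TPM. All KO libraries lay above all wt libraries for these genes. At D15 the log2 fold changes were 3.06 for *Hand2*, 2.56 for *Foxf1* and 2.08 for *Isl1*, and that of *Gsc* was 1.34 (largest adjusted p of the 4 = 5.4e-05). *Tbx6* did not pass the filter and differed by 0.34 on that scale at D15.

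Of the 9 members tested in E8, 3 were higher in KO at D7 (*T*, *Foxf1*, *Isl1*), where 11.4% of all genes tested were (3 of 10 and 7.50% without the filter), and 1 was lower (*Mesp1*), where 6.18% were. The median over all genes tested was 0.105 at D7 on the log2 scale. At D15 all 9 were higher, where 7.67% of genes were, and *Hand2*, *Foxf1* and *Isl1* had passed the filter only through KO at D15. Without the filter 9 of 10 were higher, where 5.30% of genes were. In 10 of 10 members (all 9 of those tested) no wt library reached a KO library at D15, an order shared by 52.0% of the genes tested. From D7 to D15 in wt, 5 of the 9 were lower (*T*, *Mixl1*, *Eomes*, *Mesp1*, *Evx1*), where 0.819% of genes were, the call of *T* being lost without wt replicate 1 of D15 (log2 fold change -0.88 in place of -1.03). In KO over the same time 6 of the 9 were higher (*Mixl1*, *Mesp1*, *Evx1*, *Hand2*, *Foxf1*, *Isl1*), where 3.41% were. Without the filter 6 of 10 were, against 2.29%. The difference between the time courses was called higher in KO for 8 of the 9, where 3.89% were (8 of 10 and 2.77% without the filter), with values from 1.31 for *Gsc* to 4.20 for *Mixl1* and 4.17 for *Mesp1*. *Isl1* (0.91) was short of 2-fold.

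**Figure D2:**
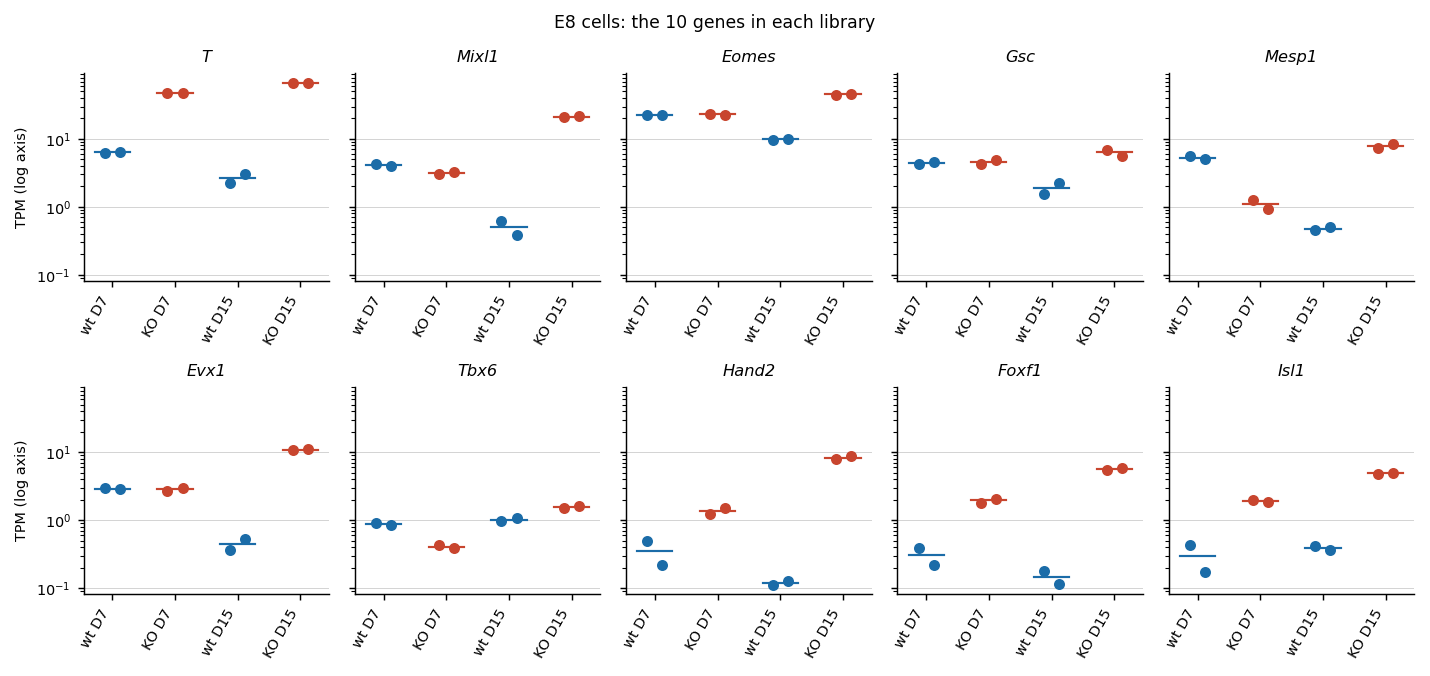
Level of each member in each E8 library (log axis, TPM), with wt in blue, KO in red and the mean as a line, at D7 and D15. At D15 every KO point is above every wt point, and *T* in KO is at 66.2 and 67.3 TPM.

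Side by side at D15, the KO lay on opposite sides of wt in the 2 lines, below wt in Tsix-stop and above it in E8, for 9 of the 10 members, an order that 22.6% of the genes detected in both lines also showed. Of the 7 members tested in both lines it held for 6, where 25.9% of genes showed it. *Hand2* had a log2 fold change of -4.68 in Tsix-stop and 3.06 in E8, *Evx1* -3.94 and 3.03, *T* -1.71 and 4.24, *Isl1* -2.58 and 2.08, *Foxf1* -2.37 and 2.56, and *Gsc* -1.81 and 1.34. *Eomes* was the exception, higher in KO in both (0.67 and 2.09). The lines differ in strain, in the *Tsix* stop, in the deletion, in the unit of their files and perhaps in the days, and the difference between them was not tested. The wt cells also differed: at D15 Tsix-stop wt had *Hand2* at 35.8 and 39.1 CPM, whereas E8 wt listed it at 0.111 to 0.125 TPM.

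**Figure D3:**
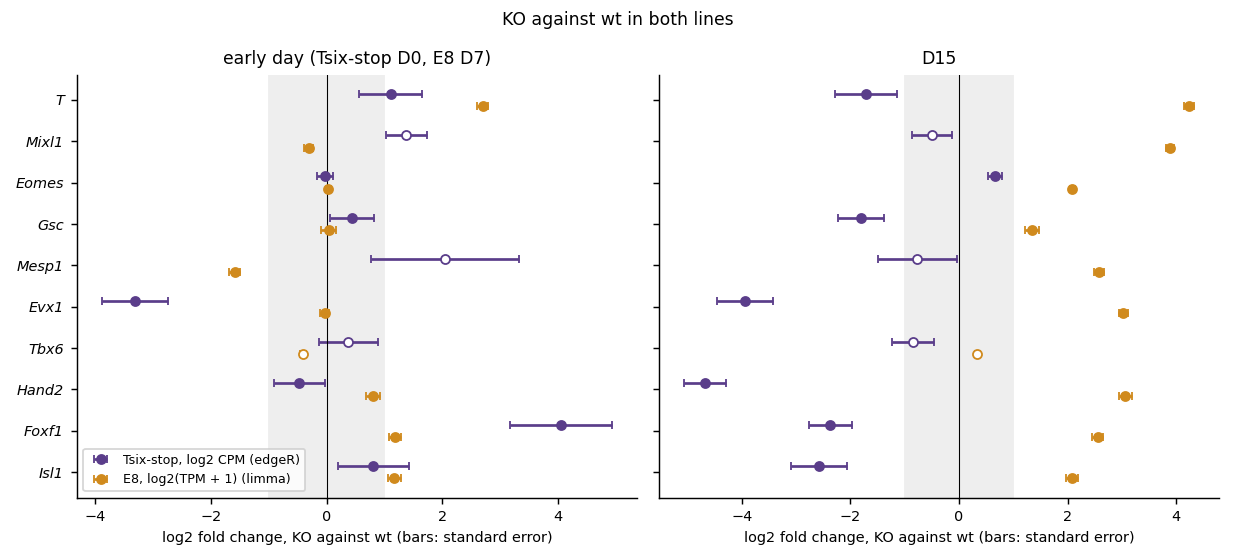
Log2 fold change of KO against wt for each member in Tsix-stop (D0, D15) and E8 (D7, D15), with bars of 1 standard error, open points for members below the filter and the range under 2-fold in grey. The *Foxf1* point of D0 rests on 1 wt count and that of *Mesp1* on 2, so neither is a bound. At D15 the members lie below 0 in Tsix-stop and above 0 in E8, except *Eomes*, which lies above 0 in both.

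Compared per length, *Hand2* led the members in Tsix-stop wt EBs, *Gsc* in wt (15.7 TPM) and control (21.8 TPM) at D0, and *T* or *Eomes* in the other groups. In Tsix-stop KO at D0 the ranges of *T* (18 to 34 TPM) and *Gsc* (14 to 32.2 TPM) overlapped. In wt at D15 the mean levels were 60.9 TPM for *Hand2*, 28.4 TPM for *Eomes* and 13.1 TPM for *T*, followed by *Evx1* (10.5) and *Gsc* (10.2), whose ranges overlapped. *Foxf1*, *Tbx6* and *Isl1* came next, between 4.12 and 4.67 TPM with overlapping ranges, and *Mixl1* (1.57 TPM) and *Mesp1* (0.955 TPM) were last. In KO at D15 *Eomes* (45.1 ± 1.32 TPM, SD, n = 2) stood far above *T* (4.07 ± 3.74 TPM), *Gsc*, *Tbx6* and *Hand2*, which overlapped in part. The control EBs had *T* (94.2 TPM) before *Eomes* (47.7 TPM), the order also found in the E8 KO EBs (66.8 ± 0.785 and 45.3 ± 1.74 TPM).

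Over the 10 Tsix-stop libraries the lateral plate genes went together and *T* went with none of them. Pearson's r of log2 CPM was 0.92 for *Hand2* with *Foxf1*, 0.93 for *Hand2* with *Isl1* and 0.93 for *Foxf1* with *Isl1*, as a description of libraries that share groups and days. *T* correlated with the other 6 members that passed the filter between -0.20 and 0.38. The genes most like *Hand2* were *Vcam1*, *Asb12* and *Hoxb2* (r = 0.993 to 0.995), and those most like *Foxf1* were *Wnk4*, *Fbn1* and *Apbb2* (0.980 to 0.984). For *Isl1* they were *Tsc22d2*, *Pcsk5* and *Tph1* (0.984 to 0.988), for *Gsc* *Dok5*, *Cryz* and *Ap4b1* (0.958 to 0.964), and for *T* *Hps6*, *Lypla2* and *Tmem115* (0.880 to 0.896).

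Reads over SNPs told the maternal (strain-129) from the cast copy of the members in Tsix-stop. The median autosomal gene had a maternal share of 50% to 51.6% in each library. *T* was read mostly from cast at D0, with a maternal share of 6.35% and 12.4% in the wt libraries, 4.08% and 11.9% in the KO libraries and 10.1% in the control. At D15 the wt libraries had shares of 28.7% and 30%, the KO libraries 23.8% and 33.7% and the control 36.1%. Every D15 library was above every D0 library, and wt and KO overlapped on both days. Summed over the wt libraries the maternal share was 9.06% (95% Wilson interval 6.46% to 12.6%, 342 SNP reads) at D0 and 29.3% (24.9% to 34.1%, 379 reads) at D15, intervals that cover counting error only.

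*Eomes* was read less from the maternal genome in the KO EBs. At D15 the maternal share was 47.4% and 38.9% in wt, 42.6% in the control and 29.8% and 30.2% in KO. The KO libraries were below the other 3, and their sum (30%, 26.9% to 33.2%, 814 reads) did not overlap that of wt (43.7%, 39.7% to 47.9%, 567 reads). At D0 the KO sum was 43.4% (32.9% to 54.6%, 76 reads) and the wt sum 45.9% (34% to 58.3%, 61 reads). *Gsc* was read more from the maternal genome in KO at D0 (59%, 53.4% to 64.3%, 307 reads) than in wt (42.5%, 36% to 49.3%, 207 reads) or the control (38.7%, 31.1% to 46.9%, 142 reads), and the 28 genes within 2 Mb of it had a median share of 54% in KO, 37.3% in wt and 38% in the control over both days. *Hand2* was read about evenly in wt at D15 (49.4% and 51.9%). With 2 libraries against 2 an exact permutation test cannot go below p = 0.333, so no p is given for these shares.

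For *Evx1* no cast read was left in KO. All 24 SNP reads of the 4 KO libraries were maternal, so 0 of 24 were cast, which allows a cast share of up to 12.5%, whereas wt had 132 of 318 reads from the maternal copy (41.5%, 36.2% to 47%) and the control 22 of 80 (27.5%, 18.9% to 38.1%). The maternal reads alone were 62 and 55 in wt and 5 and 12 in KO at D15, and 6 and 9 in wt and 2 and 5 in KO at D0. The whole neighbourhood shared the missing cast reads: of 55 genes with at least 40 SNP reads within 5 Mb of *Evx1* on chromosome 6, 51 had a maternal share of 99% or more in KO and 0 did in wt or in the control. Over these genes together the share was 99.6% to 99.8% in the KO libraries, 57.5% to 66.8% in wt and 51.2% and 51.5% in the control, and on the whole chromosome 196 of 599 genes were like this in KO. In total level, the 63 other tested genes of the neighbourhood had a median log2 fold change of -0.62 at D0 and -0.48 at D15 between KO and wt, against -3.31 and -3.94 for *Evx1*, and 4 and 6 of them lay below it. Around the other 9 members, genes within 2 Mb had a median maternal share of 50.3% to 61.3% in KO. The part of the missing cast reads in the low level of *Evx1* was not tested.

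**Figure D4:**
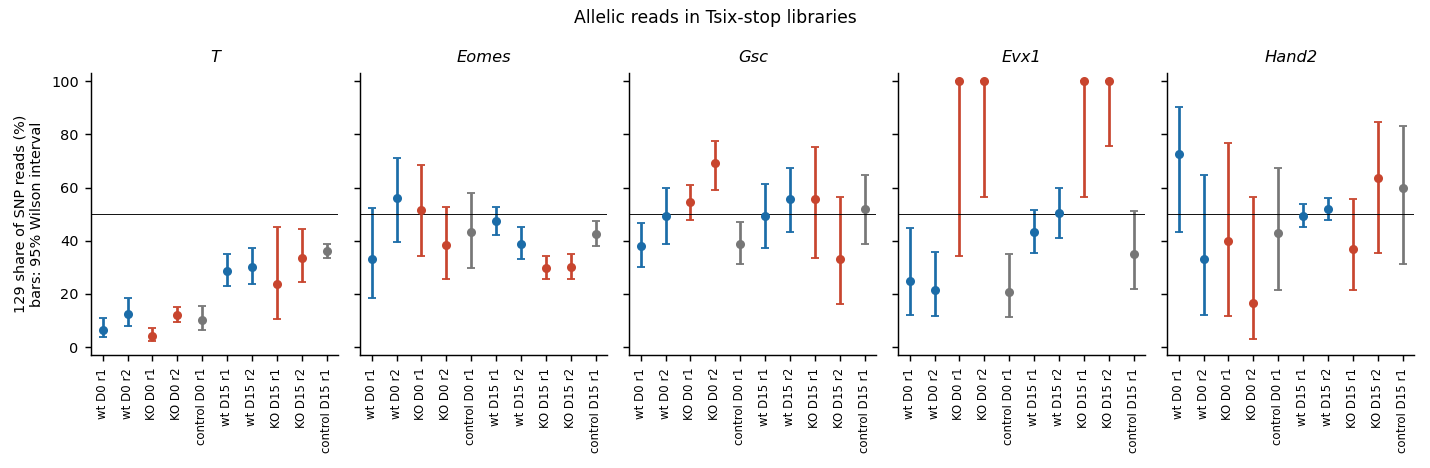
Share of SNP reads from the maternal strain-129 genome (percent) for *T*, *Eomes*, *Gsc*, *Evx1* and *Hand2* in each Tsix-stop library, with 95% Wilson intervals as bars (wt blue, KO red, control grey, line at an even share). *T* lies lower at D0 than at D15 in every group, the KO points of *Eomes* lie below the wt points at D15, and *Evx1* is at 100% in every KO library.

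Other genes of the same territory were counted from lists. Of 19 streak genes and signals that are no members, 17 were tested in Tsix-stop at D15. Of these, 10 were lower in KO and 0 higher, where 11.1% of all genes tested were lower and 3.83% higher. Their median log2 fold change was -1.71 against -0.002 over all genes. Those with the largest change were *Lhx1*, an organizer homeobox gene (-3.35), *Cer1*, a secreted Nodal antagonist (-3.17), and *Foxa2*, of the node and endoderm (-2.65). In E8 at D15, 12 of 15 tested were higher, where 7.67% of all genes tested were, and 1, the Nodal antagonist *Lefty2*, was lower (-1.48). The median was 2.07, with values of 2.37 for *Lhx1*, 1.72 for *Cer1* and 2.76 for *Foxa2*. The same shares over all genes apply to the other lists at D15. The share of all genes lower in E8 KO at D15 is not given here, so counts of lower genes in E8 have no such scale. Of 22 genes of lateral plate and cardiac mesoderm, 15 of the 17 tested in Tsix-stop at D15 were lower and 0 higher (median -2.67), and in E8 10 of 14 tested were higher and 0 lower (median 2.08). *Tbx2* (-4.00 in Tsix-stop, 2.65 in E8) and the receptor gene *Pdgfra* (-3.26 and 2.71) had the direction of *Hand2* at D15 in both lines. *Osr1* (-3.28 in Tsix-stop) was not tested in E8. At D7 in E8, 10 of these 14 lateral plate and cardiac genes were already higher in KO, where 11.4% of all genes tested were. Their difference of the E8 time courses had a median of -0.56, with 4 values positive and 10 negative. Unlike *Hand2*, *Pdgfra* fell in E8 KO, from 45.5 and 43.6 TPM at D7 to 10.6 and 10.4 TPM at D15. Among others, *Lhx1*, *Cer1*, *Tbx2* and *Osr1* passed the Tsix-stop filter only through wt at D15, and *Tbx2* the E8 filter only through KO at D15. Their direction was thus in part set by the filter, and no count of these lists without it is given here. Of 15 genes of paraxial mesoderm only 6 were tested in Tsix-stop, with *Tcf15* higher (1.30) and *Foxc1* lower (-1.22) in KO, and in E8 3 of 8 were higher, *Foxc1* among them (1.08), and 2 lower, *Tcf15* among them (-1.69). At D0, 2 of the 17 streak genes and signals were higher and 1 lower in Tsix-stop KO, and of the 17 lateral plate genes tested 1 was higher and 1 lower. Over all genes tested at D0, 3.11% were higher and 5.01% lower.

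Most fibroblast and visceral endoderm markers took the direction of most members at D15, down in Tsix-stop KO and up in E8 KO. Pluripotency sums went the opposite way in both lines. Between D7 and D15 in E8 KO, 9 of 10 visceral endoderm genes were lower (median log2 fold change -2.15, against -0.013 over all genes). The share of all genes lower in that comparison is not given here. Of the members 6 of 9 were higher, where 3.41% of all genes tested were. The control EBs had the smallest fibroblast and visceral endoderm sums of the Tsix-stop EBs and the most *T* and *Mesp1*. Whether the mix of cells bears on the members' levels was not tested. The summed level of 10 fibroblast genes was 3240 and 2870 TPM in Tsix-stop wt at D15, 219 and 284 TPM in KO and 145 TPM in the control, against 6.29 to 25.6 TPM in all libraries of D0, and 8 of 9 tested were lower in KO. The sum of 10 visceral endoderm genes was 637 and 729 TPM in wt, 53.4 and 29.5 TPM in KO and 24.8 TPM in the control at D15, and 7 of 9 tested were lower. In E8 the fibroblast sum was 25.2 to 40.8 TPM in wt and 56.9 to 68.4 TPM in KO, and the visceral endoderm sum 22.2 to 25.4 TPM in wt, 1170 and 1170 TPM in KO at D7 and 255 and 253 TPM in KO at D15. At D15 no gene of either list was at 0 in a Tsix-stop library other than *Fap* in KO replicate 1, and in E8 wt *Fap* was listed at 0 in every library. Among the Tsix-stop libraries the wt EBs, the highest in *Hand2*, *Foxf1*, *Isl1* and *Evx1*, were also the only ones with fibroblast sums above 284 TPM, and the part of these cells in the members' levels was not tested. In E8 at D15, 5 of 6 fibroblast genes tested were higher and 1 lower in KO, and 9 of 10 visceral endoderm genes were higher. Pluripotency genes summed to 9280 and 10200 TPM in wt, 15100 and 12100 TPM in KO and 8800 TPM in the control at D15, with 2 of 10 higher in KO, and in E8 KO at D15 to 8300 and 8090 TPM, under both wt libraries, with 2 of 10 lower. At D15 in Tsix-stop 5 of 7 cardiac muscle genes and 3 of 7 endothelium and blood genes were lower in KO and 2 of 4 neural genes higher. In E8, 1 of 4, 2 of 4 and 0 of 5 of these lists were higher and none lower. Over all genes tested, 11.1% were lower and 3.83% higher in Tsix-stop KO at D15, and 7.67% were higher in E8 KO at D15. The share lower in E8 KO is not given here.

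**Figure D5:**
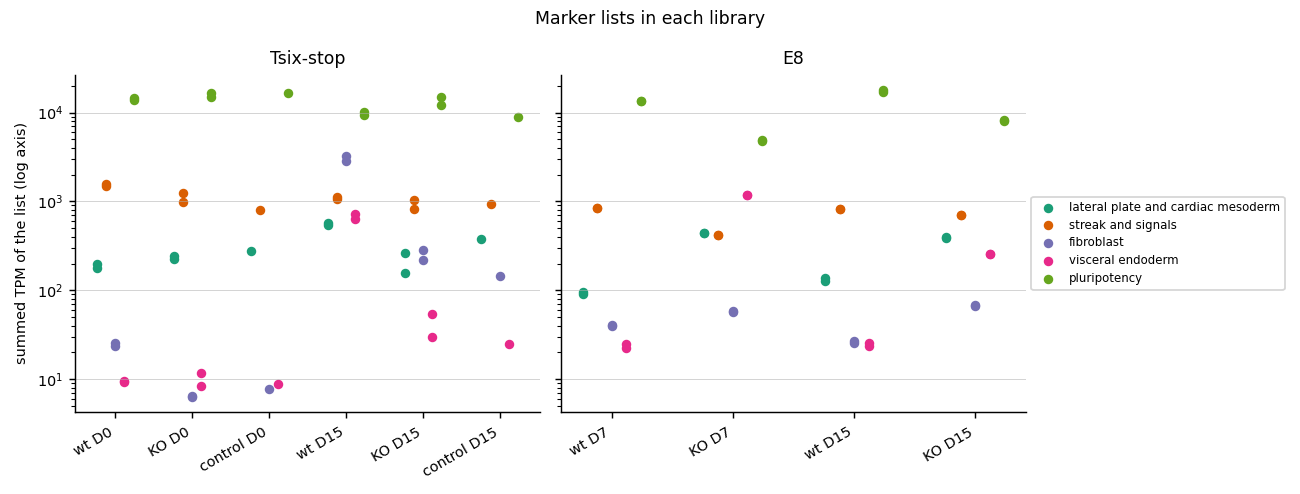
Summed level (log axis, TPM) of the member-free mesoderm and streak lists and of 3 marker lists in each library of both lines, 1 point per library. The fibroblast and visceral endoderm sums of the 2 Tsix-stop wt libraries of D15 stand above those of KO and control, and the visceral endoderm sum of the E8 KO libraries stands above wt.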

How the data were processed

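RNA-seq was analysed from 18 libraries of polyadenylated RNA (TruSeq kit, without strand). The members and gene lists were chosen with earlier results of these data known. For Tsix-stop the authors deposited expected counts per gene from alignment to the 129 and cast genomes (Bowtie2 2.4.5 and TopHat2 2.1.1 in the submitters' processing notes, mm10), as a count on the 129 genome, which served as the diploid level, on cast or on either, and of reads with 129 or cast SNPs. For E8 the authors deposited TPM values only, each column summing to the same total, so their depth is unknown and replicates differed by a median of 0.035 to 0.063 on the log2 scale. Of the Tsix-stop counts 7.10% were not whole, and they were rounded. Rows of 537 repeated E8 symbols were summed.

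Genes with at least 2.5 CPM (or TPM) in at least 2 of the 8 wt and KO libraries of a line were tested (13121 in Tsix-stop, 12452 in E8). Tsix-stop was fitted by group with edgeR 4.0.16 (quasi-likelihood test, TMM, R 4.3.3), and E8 with limma 3.58.1 with trend on log2(TPM + 1), a scale that understates changes of low values. Both used Benjamini-Hochberg adjustment over all genes tested, and a call needed an adjusted p of at most 0.1 and a 2-fold difference, the thresholds of the study's methods. TPM of Tsix-stop was computed from counts and exon lengths of GENCODE vM21. Positions came from the same annotation. Fits were tested on simulated data. Alternatives were DESeq2 1.42.0, other normalizations, filters, thresholds, genomes, pseudocounts and left-out libraries.

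Named genes were all members, the 3 called genes with the largest change of each mesoderm or streak list in Tsix-stop at D15, and the 3 genes most correlated with each tested member (not reported here for *Eomes* and *Evx1*). *Lefty2*, *Gsc* in the allelic comparison and *Fap* were named after their values were seen. By the study's methods the Tsix-stop wt libraries are biological replicates and the KO libraries come from a pair of clones. E8 had 1 wt control and 1 KO clone, so its p-values measure only the spread between these samples, which may be technical. Replicates of Tsix-stop differed by a median of 0.124 to 0.173 on the log2 scale, beyond sampling noise (chi-square 36.2 to 79.1 per gene). The control libraries, 1 per day, entered no main test.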

Additional observations from a re-analysis of the deposited data

Results flagged for a closer look

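Members whose KO effect differed between days, by the test of that difference, were in Tsix-stop *T* (-2.83), *Gsc* (-2.25), *Hand2* (-4.21), *Isl1* (-3.40) and *Foxf1* (-6.42, resting on 1 wt count at D0 and thus no bound), all on the log2 scale and lower in KO. In E8 they were *T* (1.53), *Mixl1* (4.20), *Eomes* (2.06), *Gsc* (1.31), *Mesp1* (4.17), *Evx1* (3.06), *Hand2* (2.26) and *Foxf1* (1.38), all higher in KO.

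At D15 every KO library lay below every wt library in Tsix-stop and above every wt library in E8 for 9 members, an order that 22.6% of the genes detected in both lines also showed. The log2 fold changes in Tsix-stop and then in E8 were -1.71 and 4.24 for *T*, -0.50 and 3.89 for *Mixl1*, -1.81 and 1.34 for *Gsc*, -0.77 and 2.58 for *Mesp1*, -3.94 and 3.03 for *Evx1*, -0.85 and 0.34 for *Tbx6*, -4.68 and 3.06 for *Hand2*, -2.37 and 2.56 for *Foxf1* and -2.58 and 2.08 for *Isl1*. The difference between the lines was not tested, and *Mixl1*, *Mesp1* and *Tbx6* did not pass the test in Tsix-stop.

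The CRISPR control library of D15, which entered no main test, had *T* at 55.7 CPM and *Mesp1* at 1.81 CPM, each above all other Tsix-stop libraries.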

How the results depend on the processing

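Counts of members called depended most on the filter and on the control group. With 2.5 CPM asked of 4 libraries, only *T*, *Eomes* and *Gsc* were tested, and edgeR called 0 at D0 (0 at an unadjusted p under 0.05), 2 at D15, 1 from D0 to D15 in wt, 3 in KO and 2 in the difference of the time courses. In E8 the same filter left 2 at D7 and 3 from D7 to D15 in KO. With the CRISPR control added to wt, edgeR called 0 at D0 (1 unadjusted), 4 at D15 and 0 in the difference (2 unadjusted), and the *Foxf1* value at D0 reversed to -0.09 (adjusted p = 0.99). With the control in place of wt, chosen after seeing the data like the fits without filter, it called 0 at D0 (1 unadjusted), 0 at D15 (2 unadjusted), 3 from D0 to D15 and 0 in the difference (1 unadjusted). Leaving out 1 library at a time gave 0 to 3 called at D0, 1 to 6 at D15, 1 to 8 for wt and 3 to 8 (7 without KO D15 replicate 1) for KO from D0 to D15, and 2 to 6 for the difference. In E8 it gave 2 to 4 at D7 and 3 to 6 from D7 to D15 in KO. The low ends came without wt replicate 1 or 2 of D15 (in E8, KO replicate 1 or 2 of D15), where the filter then dropped *Evx1*, *Hand2*, *Foxf1* and *Isl1* (in E8 *Hand2*, *Foxf1* and *Isl1*). *Evx1* in KO from D0 to D15 lost its call without KO D0 replicate 1 (adjusted p = 0.23) or KO D15 replicate 2 (adjusted p = 0.53). With the replicate number as a block the counts were the same (2, 6, 5, 6 and 5 in Tsix-stop, 4, 9, 5, 6 and 8 in E8), and the numbers did not pair the samples (correlation of deviations -0.21 to 0.23). Of the members' called values under all alternatives, 460 in Tsix-stop and 511 in E8 kept direction and call, 27 and 3 lost the call, and 1 and 0 reversed. This tally leaves out members that an alternative's filter dropped. It also includes the setting without a minimum fold, which could lose no call. At 3 counts per library, levels under about 0.0552 CPM could not be told from absence.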
